A study of Mus musculus with 10 samples.

Results

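The comparison is of 4T1 mammary carcinoma sublines isolated from brains (B1 to B4) with 4T1 sublines isolated from lungs (L1 to L3), 7 of the 10 arrays of the series. Arrays were taken by their titles, Brain metastasis or Lung metastasis, and the 3 arrays of primary tumour sublines (T1 to T3) were kept out of the fit. 4T1 is a cell line from a mammary tumour of a BALB/c mouse, which spreads to lung and brain without further manipulation. All sublines, T sublines included, came from 4T1 cells tagged with firefly luciferase by lentivirus that had grown as a tumour in female BALB/c mice aged 6 to 8 weeks. The methods state inoculation under the skin, whereas the design text states the mammary site. Brains and lungs were dissociated one by one, and the cells that grew out were passaged 3 to 4 times, so that the RNA is that of cultured cells, some time after they left the organ. Each subline was isolated independently and has 1 array, and the p-values measure the spread between sublines. Where a gene was not detected in a group, its spread there is that of values at background. No source used here gives the mouse or the slide of a subline.

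Carcinoma cells that leave the mammary gland meet different hosts in the lung and the brain. Lung colonisation by breast cancer cells is known for its use of inflammatory chemokines, matrix proteins such as tenascin C and matrix-degrading proteases, while in the brain the cells meet astrocytes, microglia and a tissue poor in fibrillar matrix. Mammary epithelium has a luminal layer that makes milk and a basal layer with contractile fibres and basal keratins, and carcinoma cells can mix features of both layers or lose epithelial features through epithelial to mesenchymal transition (EMT).

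Of 45281 probes, 17362 were detected on at least 1 of the 7 arrays, with 14796 to 15563 detected on a B array and 14764 to 14938 on an L array. A probe counted as detected where its detection p was at most 0.01, and normalized intensities are given on the log2 scale. Of the 6 carcinoma epithelium markers, Cdh1, Krt8, Krt18, Krt7 and Krt19 were detected and Epcam was not detected on any of the 7 arrays, and the summed background-corrected intensity of the list was 26074 to 36660 on B arrays and 29096 to 34808 on L arrays. RNA of brain cells was looked for with marker lists. Of 13 astrocyte markers 3 were detected (Gja1, Sox9 and Aldoc), with a sum of 16212 to 19570 on B arrays and 13642 to 15247 on L arrays, and Gfap and Aqp4 were detected on none. Of 16 neuron markers 2 were detected, of 12 oligodendrocyte markers 4, of 12 endothelial markers 2 and of 10 lymphocyte markers 0. On B against L arrays the neuron sum was 522 to 1035 against 457 to 609. The oligodendrocyte sum was 1047 to 3299 against 807 to 1047, the endothelial sum 1209 to 1845 against 843 to 947. Lymphocyte sums were 94 to 109 against 95 to 127. The endothelial marker Flt1 was higher in B by 1.02 (limma adjusted p = 0.025, above 0.05 without L1, L2 or L3). Of 11 lung epithelium markers Aqp5 and Ager were detected, with a sum of 563 to 981 on B arrays and 258 to 388 on L arrays. The macrophage and microglia markers went the other way, with 3 of 18 detected and a sum of 268 to 488 on B arrays, against 648 to 777 on L arrays. The 3 were Lyz2, Cd14 and P2ry12, and Ptprc, Adgre1, Csf1r and Itgam were among those detected on none of the 7 arrays.

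Brain-derived sublines stood farther from each other than lung-derived sublines did. Over the 17362 probes, the mean Euclidean distance was 83.0 ± 11.2 between B and L arrays (SD, 12 pairs), 74.1 ± 10.2 within B (6 pairs) and 44.6 ± 0.50 within L (3 pairs). Distances between the groups exceeded those within them by 18.7 on average, with an exact one-sided permutation p of 0.0286, the smallest that the 35 choices of 3 arrays allow. With 1 array left out, the difference was 11.4 to 25.5 and p was 0.0667 to 0.133. B3 lay farthest from the L arrays (99.2) and B4 nearest (71.6). The mean distance to the other B arrays was 82.3 for B3 and 70.0 for B4, so that B4 lay about as far from them as from L. Gene by gene, the median SD was 0.28 among B sublines and 0.19 among L sublines, and 71.9% of the genes tested had the larger SD in B.

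In all, 9423 genes were tested, and 760 of them differed between B and L sublines at a Benjamini-Hochberg adjusted p under 0.05 in limma (8.07% of the genes tested). Of these, 361 were higher in B (3.83%) and 399 lower in B (4.23%), and the median difference over all genes was at 0.00. A difference of at least 1, or 2-fold, was reached by 159 of the genes higher in B and 186 of those lower in B, and by 5.44% of all genes tested whether called or not. A difference of at least 3, or 8-fold, was reached by 8 and 13. The 4 B values lay clear of the 3 L values for 757 of the 760 called genes, against 24.9% of all genes tested (2343 genes). At the threshold of the methods, an unadjusted p under 0.001, 366 genes passed, 174 higher and 192 lower in B, and 259 of these differed at least 2-fold. An unadjusted p under 0.05 was reached by 2427 of the 9423 genes in the random variance model of the methods. Counts of list members at that p are to be read beside this number. The number of calls leaned on single arrays. It was 366 without B1, 146 without L1, 124 without L2 and 226 without L3, where only 2 L arrays are left. Of 571 further detected probes of the called genes, 536 had the same sign as the probe used, of which 202 passed an adjusted p of 0.05 over all probes, and 1 passed with the opposite sign.

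**Figure D1:**
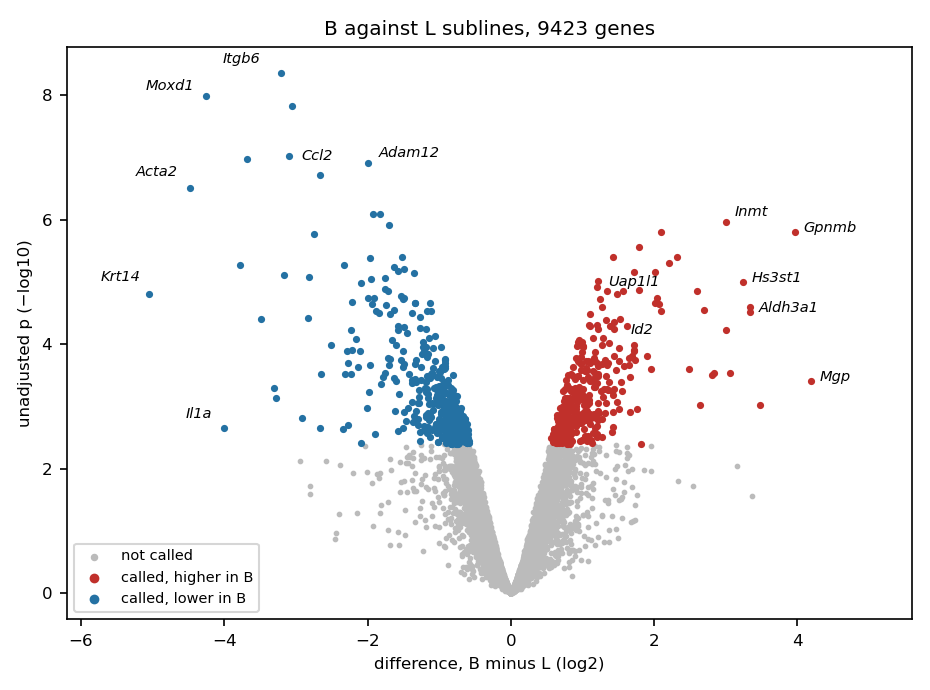
Difference between B (n = 4) and L (n = 3) sublines on the log2 scale (horizontal axis) against the unadjusted limma p on a −log10 scale (vertical axis), 1 point per gene. Of 9423 genes, 361 were called higher in B (red) and 399 lower in B (blue), and Krt14, farthest to the left, lay at a difference of -5.05; points of genes not detected in 1 group, such as Acta2 and Moxd1, rest there on values at background.

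Among the genes highest in the brain-derived sublines were a calcification inhibitor, a lysosomal glycoprotein, an aldehyde dehydrogenase and several enzymes that modify hormones or sugars. Gpnmb, a glycoprotein of melanosomes and lysosomes, had normalized intensities of 10.73, 8.93, 9.61 and 10.33 in B1 to B4, against 6.0, 5.64 and 6.17 in L1 to L3, a difference of 3.96 ± 0.38 SE, adjusted p = 0.00104. Its other 3 probes differed by 2.05 to 3.28. Mgp, matrix Gla protein, which inhibits calcification, stood at 11.08, 11.20, 13.99 and 10.40 in B1 to B4, against 7.07, 6.68 and 8.68 in L1 to L3 (4.19 ± 0.79 SE, adjusted p = 0.0159). B3 was the highest of the B values. The 14 largest differences in each direction were taken from calls with no overlap, so this separation was fixed by the choice. Aldh3a1, which oxidises aldehydes, was measured at 9.22, 10.05, 10.81 and 8.61 in B1 to B4, against 6.14, 6.11 and 6.73 in L1 to L3 (3.34 ± 0.45 SE, adjusted p = 0.00409). Hs3st1, which adds 3-O-sulphate to heparan sulphate, was read at 8.51, 10.26, 9.69 and 10.28 in B1 to B4, against 6.5, 6.28 and 6.54 in L1 to L3 (3.25 ± 0.38 SE, adjusted p = 0.00267). The secreted neuronal pentraxin Nptx1 (3.33), the Iroquois homeobox factor Irx3 (2.70), the forkhead factor Foxq1 (2.81) and the luminal transcription factor Tfap2c (2.64) were also higher in B. Nptx1 and Foxq1 were each detected on 1 L array only, so that their differences rest in part on values at background. Leaving out 1 array took the adjusted p past 0.05 for Mgp (without L1 or L2, up to 0.092), Foxq1 (without L1 or L2, up to 0.0833) and Tfap2c (without B1, L1, L2 or L3, up to 0.117). The blocked fit gave an adjusted p of 0.0586 for Tfap2c. Among the 12 unblocked settings that left out no array, those that ended the call (with the highest adjusted p) numbered 2 for Mgp (0.0701) and 3 for Tfap2c (0.0766). Further probes that were not called (with their differences) were those of Tfap2c (2.18 and 1.30).

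A further set of genes was detected on all 4 B arrays and on no L array, so that only a lower bound of the fold can be given. Their p-values rest in part on the spread of L values at background, with an SD of 0.026 for Scara5 and 0.035 for Inmt. Of 50 such genes 30 were called, and 11 of the 30 had another probe that was detected in L. Inmt, an N-methyltransferase of indoles, stood at 6.97, 8.12, 7.90 and 7.17 in B1 to B4, against 4.58, 4.53 and 4.51 in L1 to L3, at least 3.48-fold higher in B (adjusted p = 0.000934). Dio2, the deiodinase that activates thyroxine, had 7.75, 7.54, 8.46 and 7.0 in B1 to B4, against 4.82, 5.51 and 4.96 in L1 to L3, at least 3.86-fold higher (adjusted p = 0.0031). Both genes had 4 B values above all 3 L values, as the choice of genes by lack of overlap required. Cyp24a1, which breaks down active vitamin D, was at least 6.17-fold higher, the ferritin receptor Scara5 at least 4.73-fold, the early response factor Egr3 at least 4.64-fold, the Wnt-inactivating hydrolase Notum at least 2.36-fold and the integrin subunit Itga8 at least 2.23-fold (adjusted p of 0.0138, 0.0248, 0.014, 0.00409 and 0.00971). The lowest Scara5 value was that of B4, at 5.82, with 7.70 to 9.84 on the other B arrays. The call was lost when 1 array was left out for Cyp24a1 (without L1, L2 or L3, up to 0.0833), Scara5 (without B1, L1, L2 or L3, up to 0.11), Egr3 (without L1, L2 or L3, up to 0.0739) and Itga8 (without L1 or L2, up to 0.0598). The number of the 12 unblocked settings with no array left out in which the call was lost (with the highest adjusted p) was 1 for Cyp24a1 (0.0528) and 3 for Scara5 (0.0861). Differences of other probes that missed the threshold were those of Inmt (0.83) and Itga8 (0.78).

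**Figure D2:**
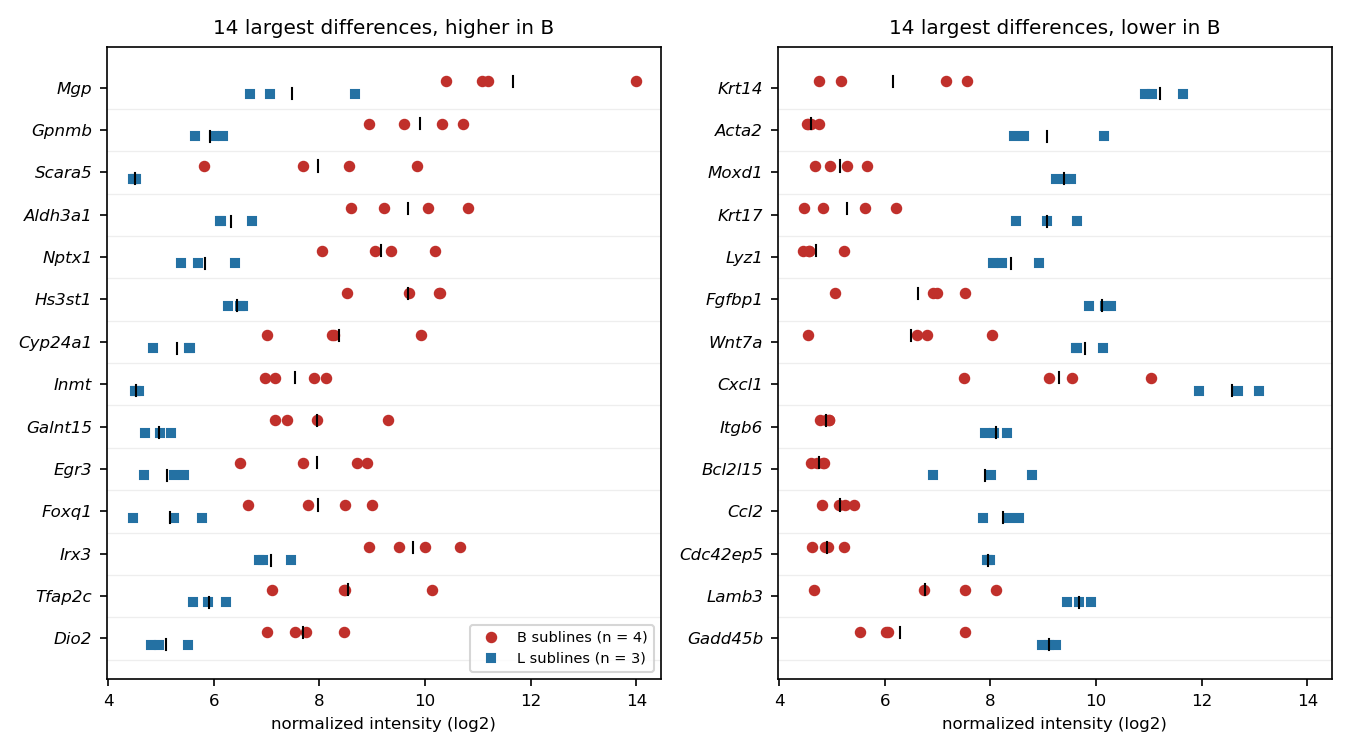
Normalized intensity (log2, horizontal axis) on each array for the 14 called genes that differed most in each direction with no overlap of the groups. Red circles are the 4 B sublines, blue squares the 3 L sublines and black ticks the group means; Gpnmb lay between 8.93 and 10.73 in B sublines and between 5.64 and 6.17 in L sublines, and Krt14 between 4.75 and 7.55 in B sublines and between 10.93 and 11.64 in L sublines.

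Among the genes lowest in the brain-derived sublines were a basal keratin, smooth muscle actin and a monooxygenase. Krt14 was at 7.55, 5.18, 4.75 and 7.16 in B1 to B4, against 10.93, 11.05 and 11.64 in L1 to L3 (-5.05 ± 0.63 SE, adjusted p = 0.00322), and its probe was detected on 2 of the 4 B arrays. In RNA of a whole culture, fewer Krt14-positive cells and less RNA per cell cannot be told apart. Acta2, smooth muscle alpha actin, had 4.55, 4.76, 4.53 and 4.6 in B1 to B4, against 8.64, 10.15 and 8.45 in L1 to L3, and none of its 4 probes was detected in B, which makes it at least 10.5-fold lower (adjusted p = 0.000364). The other 3 Acta2 probes differed by -1.23 to -1.76. Moxd1, a relative of dopamine beta-hydroxylase, read 5.66, 4.97, 4.68 and 5.29 in B1 to B4, against 9.53, 9.42 and 9.24 in L1 to L3, at least 13-fold lower (adjusted p = 4.67e-05). In all 3 genes every B value lay below every L value, which the choice of genes by lack of overlap fixed in advance. Of 57 genes detected on all L arrays and on no B array, 52 were called, 12 of them with another probe detected in B. Among them, Itgb6, the partner of integrin alpha v that activates latent TGF-β, had 4.78, 4.94, 4.88 and 4.95 in B1 to B4, against 7.90, 8.32 and 8.07 in L1 to L3, at least 5.31-fold lower (adjusted p = 4.11e-05). The Cdc42 effector Cdc42ep5 was at least 4.83-fold lower, the Bcl-2 family member Bcl2l15 at least 4.65-fold and Mab21l4 at least 3.08-fold (adjusted p of 4.67e-05, 0.00238 and 0.000258). Fgfbp1, which releases fibroblast growth factors from the matrix, was at 6.99, 5.07, 6.91 and 7.53 in B1 to B4, against 10.28, 9.87 and 10.18 in L1 to L3 (-3.49 ± 0.49 SE, adjusted p = 0.00479). The stress-induced gene Gadd45b differed by -2.83, with an adjusted p of 0.00479.

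Epithelial genes did not move as 1 group. Of 11 basal and myoepithelial genes tested, 5 fell and 1 rose (54.5% called against 8.07% of all genes), with a median difference of -0.53. Besides Krt14 and Acta2, the basal keratin Krt17 (-3.78) and the laminin-332 chain Lamb3 (-2.92) fell, while Itgb4, the hemidesmosome integrin that binds laminin-332, rose by 1.16. Krt17 had 6.21, 4.83, 4.47 and 5.63 in B1 to B4, against 9.63, 8.48 and 9.07 in L1 to L3. Of 17 luminal and milk genes, 6 rose and 3 fell (52.9% called). Tfap2c and Gata3 (0.84), which specify luminal cells, rose with the milk fat globule enzyme Xdh (2.01) and the secreted protease inhibitor Slpi (1.20), whereas the luminal keratin Krt19 (-1.89), the mucin Muc1 (at least 1.59-fold lower) and the epithelial factor Elf3 (-0.97) fell. The number of luminal genes called higher was 2 with the replicate number as a block. Xdh stood at 9.35, 9.19, 9.52 and 8.77 in B1 to B4, against 7.58, 6.95 and 7.07 in L1 to L3 (2.01 ± 0.23 SE, adjusted p = 0.00232). Contractile genes other than Acta2 mostly missed the threshold, with 3 of 22 lower and 0 higher (13.6% called against 8.07% of all genes). Calls that did not hold in every subset of 6 arrays were those for Lamb3 (without B1, B2, L1, L2 or L3, up to 0.123), Itgb4 (without L1 or L2, up to 0.0671), Gata3 (without L1, L2 or L3, up to 0.117) and Slpi (without B1, B3, B4, L1, L2 or L3, up to 0.149). Further such genes were Krt19 (without B1, B2, L1, L2 or L3, up to 0.145), Muc1 (without L1 or L2, up to 0.0646) and Elf3 (without L1, L2 or L3, up to 0.0971). With the replicate number as a block the adjusted p was 0.0993 for Slpi and 0.0561 for Muc1. Of 12 settings that left out no array and had no block, the number that ended the call (with the highest adjusted p) was 2 for Lamb3 (0.104), 1 for Gata3 (0.0706), 4 for Slpi (0.241), 2 for Krt19 (0.116) and 1 for Elf3 (0.0507). Other probes of the same gene missed the threshold for Muc1 (-1.06) and Elf3 (-0.60).

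Of 21 genes of cell junctions and epithelial identity, 5 fell and 1 rose (28.6% called against 8.07% of all genes). The median of -1.03 was the lowest of the 29 lists. The Rab GTPase Rab25 (-2.65), the epithelial splicing factor Esrp2 (-1.29), the desmosome protein Pkp2 (-1.27) and the cornified envelope protein Evpl (-1.03) fell, and the plakin Ppl rose by 1.32. The probes of Esrp2 and Evpl were each detected on 1 B array only, so that their differences rest in part on values at background. The array medians of this list, taken as differences from the L mean, were -0.43, -0.51, -1.43 and -0.48 on B1 to B4, so that B3 was the lowest. The number that fell was 3 with the replicate block and 0 to 7 without 1 array. Rab25 was at 6.10, 6.91, 4.61 and 6.2 in B1 to B4, against 8.23, 8.32 and 9.27 in L1 to L3 (-2.65 ± 0.48 SE, adjusted p = 0.014). The median of 15 genes of the EMT programme was 0.43 (0.37 where a gene that no array of 1 group detected is set to its bound). Of the 15, 3 rose and 0 fell (20% called). They were Foxq1, the intermediate filament Vim (13.82, 13.58, 14.22 and 13.44 in B1 to B4, against 12.58, 12.16 and 13.08 in L1 to L3; 1.16 ± 0.26 SE, adjusted p = 0.0288) and the calcium-binding protein S100a4 (1.09). Of the fibroblast and pericyte markers 5 of 14 were detected, and Col1a1, Col1a2, Col3a1 and Postn were among those that were not. The sum of the list was 789.5 to 2953 on B arrays and 629.6 to 764.6 on L arrays. Most of it on B3 was Pdgfra, a receptor of platelet-derived growth factors, at 11.45 against 9.18 to 9.43 on the other B arrays, and its part in the EMT genes was not tested. The called gene of these markers, Pdpn, podoplanin, went the other way, at 4.97, 4.6, 4.58 and 4.73 in B1 to B4, against 7.23, 7.51 and 6.41 in L1 to L3, at least 2.57-fold lower (adjusted p = 0.00215). Without 1 of the 7 arrays the threshold was missed for Rab25 (without L1, L2 or L3, up to 0.0636), Esrp2 (without B1, B2, L1, L2 or L3, up to 0.141), Pkp2 (without B1, B4, L1, L2 or L3, up to 0.14) and Evpl (without B1, B2, B4, L1, L2 or L3, up to 0.142). The same held for Ppl (without L2 or L3, up to 0.118), Vim (without B1, L1 or L2, up to 0.132) and S100a4 (without B1, L1 or L2, up to 0.105). The blocked fit gave an adjusted p of 0.061 for Pkp2. Among the 12 unblocked settings that left out no array, those that ended the call (with the highest adjusted p) numbered 5 for Esrp2 (0.0891), 2 for Pkp2 (0.144), 3 for Evpl (0.0852) and 1 for Vim (0.0634). Further probes that were not called (with their differences) were those of Esrp2 (-1.0) and Pkp2 (-1.27 and -1.01).

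A further set of epithelial genes was lowest among the 7 arrays on B3. These genes were picked out after their values were seen, and none of them was called between B and L. Grhl2, a transcription factor that maintains epithelium, had 9.42, 9.10, 4.53 and 9.61 in B1 to B4, against 9.80, 9.77 and 9.60 in L1 to L3. Esrp1, which directs epithelial splicing, had 11.08, 11.66, 4.69 and 8.37 in B1 to B4, against 11.41, 10.99 and 11.77 in L1 to L3. The keratin Krt7 had 12.32, 11.71, 5.37 and 12.96 in B1 to B4, against 13.17, 13.03 and 12.94 in L1 to L3. B3 was the lowest array in each of these genes, and in Esrp1 B4 also lay below every L array. The desmosomal cadherin Dsg2 was at 4.96 on B3 and 9.09 to 10.15 on the other B arrays, against 10.14 to 10.44 in L. The tight junction protein Cldn4 was at 6.64 on B3 and 10.28 to 11.89 on the other B arrays, against 12.90 to 13.07 in L. Cldn3 was at 4.92 on B3 and 8.48 to 9.28 on the other B arrays, with every L value at 10.70 or more (difference -2.95, adjusted p = 0.0701). E-cadherin, Cdh1, was at 8.32 on B3, 9.66 to 10.23 on the other B arrays and 10.78 to 11.15 on L arrays (difference -1.41, adjusted p = 0.0648). The simple epithelial keratins Krt8 and Krt18 were not low on B3, at 14.51 and 13.67, against 13.54 to 13.95 and 12.62 to 12.97 in L.

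Called proteases and inhibitors were lower in the brain-derived sublines, whereas matrix genes were called in either direction. Of 25 proteases and inhibitors, 9 fell and 0 rose (36% called against 8.07% of all genes). The median was -0.28 (-0.16 at the bounds). At an unadjusted p under 0.05, 10 were lower and 2 higher. In the random variance model, 2427 of all 9423 genes passed that p. Mmp12, the macrophage elastase, was at least 1.67-fold lower, and the membrane protease Adam12 at least 1.83-fold, with values of 4.54, 4.52, 4.63 and 4.59 in B1 to B4, against 6.49, 6.55 and 6.65 in L1 to L3 (adjusted p of 0.00337 and 0.000195). The collagenase Mmp13 had 6.66, 6.42, 5.09 and 5.99 in B1 to B4, against 8.59, 8.37 and 7.80 in L1 to L3 (-2.21 ± 0.36 SE, adjusted p = 0.00961). The gelatinase Mmp9 differed by -2.67 and lay between 6.01 and 9.0 in B, against 9.78 to 10.61 in L. Of 32 matrix genes 3 rose and 4 fell (21.9% called), at a median of 0.07 (0.00 at the bounds). At an unadjusted p under 0.05, 9 were higher and 6 lower. The basement membrane collagen Col4a5 (1.22), Ecm1 (1.42) and Mgp rose. Lamb3, fibulin 2 (-1.62), the small proteoglycan biglycan (at least 1.87-fold lower) and tenascin C (at least 1.48-fold lower) fell. Ecm1 was tight in both groups, at 11.12, 11.30, 11.18 and 10.98 in B1 to B4, against 9.73, 9.70 and 9.74 in L1 to L3 (1.42 ± 0.15 SE, adjusted p = 0.00191). Of 17 integrin subunits, Itgb4 and Itga8 rose, and Itgb6 and the collagen-binding Itga2 (-1.35) fell (23.5% called). The 0.05 limit was crossed when an array was dropped for Mmp13 (without L1 or L2, up to 0.0602), Mmp9 (without B1, B2, B4, L1, L2 or L3, up to 0.155), Col4a5 (without L1, L2 or L3, up to 0.111) and Fbln2 (without B1, L1, L2 or L3, up to 0.112). It was also missed for Itga2 (without L1, L2 or L3, up to 0.127). In the fit with the replicate block the adjusted p was 0.0807 for Mmp9 and 0.0649 for Col4a5. The number of the 12 unblocked settings with no array left out in which the call was lost (with the highest adjusted p) was 2 for Mmp9 (0.118), 1 for Col4a5 (0.0633), 2 for Fbln2 (0.0751) and 1 for Itga2 (0.0749). Differences of other probes that missed the threshold were those of Mmp13 (-0.65) and Ecm1 (0.94).

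Inflammatory genes that were called were lower in B, with 1 exception. Of 27 chemokine and NF-κB genes tested, 11 fell and 1 rose (44.4% called against 8.07% of all genes). The median was -0.83 (-0.78 at the bounds, all genes 0.00). Array medians were -0.80 to -0.98 on B arrays and -0.17 to 0.19 on L arrays. T arrays were at -0.72, -0.18 and -0.16. Without 1 array, 2 to 13 genes of the list were called lower. Cxcl1, which draws neutrophils, had 9.55, 11.04, 7.50 and 9.10 in B1 to B4, against 12.69, 13.09 and 11.95 in L1 to L3 (-3.28 ± 0.67 SE, adjusted p = 0.0217). Ccl2, which draws monocytes, was at 4.80, 5.42, 5.24 and 5.14 in B1 to B4, against 8.54, 8.35 and 7.86 in L1 to L3, at least 5.89-fold lower (adjusted p = 0.000195). The cytokine Il1a stood at 4.84, 8.27, 4.62 and 5.06 in B1 to B4, against 10.65, 10.76 and 7.69 in L1 to L3, where B2 lay above L3 (-4.0 ± 0.97 SE, adjusted p = 0.0366). The scavenger chemokine Cxcl16 fell by 2.32. The rest of the genes that fell were Ccl7, Cxcl2, Nfkb2, Relb, Nfkbia, Tnfaip3 and Sod2, named here after their values were seen. Cx3cl1, the ligand of the microglial receptor Cx3cr1, was the gene that rose, at 9.63, 9.35, 10.47 and 9.20 in B1 to B4, against 7.80, 7.80 and 8.40 in L1 to L3 (1.66 ± 0.30 SE, adjusted p = 0.0146). The lysozyme genes Lyz1 (at least 6.52-fold lower) and Lyz2 (at least 1.81-fold lower) are close copies whose probes may read each other. The summed macrophage markers, with 3 of 18 detected, were lower in B, as given above, and their part in this group was not tested. Among granulocyte markers, S100a8 and Lcn2 varied within each group, and Lcn2 had 8.04, 12.27, 7.11 and 8.60 in B1 to B4, against 12.25, 12.11 and 9.83 in L1 to L3 (-2.39 ± 1.09 SE, adjusted p = 0.203). With 6 arrays the adjusted p exceeded 0.05 for Cxcl1 (without B1, L1, L2 or L3, up to 0.111), Il1a (without B1, B3, B4, L1 or L2, up to 0.157), Cx3cl1 (without L1 or L2, up to 0.0868) and Cxcl16 (without L1 or L2, up to 0.0833). Of 12 settings that left out no array and had no block, the number that ended the call (with the highest adjusted p) was 2 for Cxcl1 (0.0834) and 2 for Il1a (0.127).

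Of 27 interferon-stimulated genes, 3 fell and 1 rose (14.8% called against 8.07% of all genes). Rsad2, an antiviral enzyme, had 7.16, 6.37, 4.62 and 6.89 in B1 to B4, against 8.68, 7.64 and 8.71 in L1 to L3 (-2.09 ± 0.55 SE, adjusted p = 0.0492). The number that fell was 1 with the replicate block. Of 20 genes of MHC class I presentation 2 rose and 0 fell, 10% called against 8.07% of all genes, which is near the background. These were Cd1d1, which presents lipids (0.94), and the peptide transporter Tap2 (0.72). B2m, the light chain of class I, was at 14.29, 14.05, 14.28 and 14.23 in B1 to B4, against 14.07, 13.77 and 14.15 in L1 to L3 (0.22 ± 0.16 SE, adjusted p = 0.443). Dropping an array moved the adjusted p above 0.05 for Rsad2 (without B1, B2, B4, L1, L2 or L3, up to 0.169), Cd1d1 (without L2, up to 0.052) and Tap2 (without B1, B2, L1, L2 or L3, up to 0.143). The blocked fit gave an adjusted p of 0.0584 for Rsad2 and 0.0555 for Tap2. Among the 12 unblocked settings that left out no array, those that ended the call (with the highest adjusted p) numbered 4 for Rsad2 (0.14) and 1 for Tap2 (0.0721).

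Amino acid supply was a group that fell without exception among its called genes. ATF4 is a transcription factor that is made when amino acids run short or the unfolded protein response is active, and its targets make or import amino acids. Of 33 such genes tested 9 fell and 0 rose (4.23% of all genes fell), the median difference was -0.56 (-0.47 at the bounds), and 29 of the 33 had a negative difference. At an unadjusted p under 0.05, 17 were lower and 0 higher in limma. In the random variance model, 2427 of all 9423 genes passed that p. Asns, asparagine synthetase, stood at 8.10, 8.0, 7.74 and 8.32 in B1 to B4, against 9.93, 9.44 and 10.01 in L1 to L3 (-1.75 ± 0.20 SE, adjusted p = 0.00252), with its other 2 probes also lower, the nearer one at -1.43. The mitochondrial folate enzyme Mthfd2 had 8.88, 7.81, 8.23 and 8.84 in B1 to B4, against 10.55, 9.86 and 10.06 in L1 to L3 (-1.72 ± 0.29 SE, adjusted p = 0.0112). Gpt2, which makes alanine (-1.55), and Aldh18a1, which starts proline synthesis (-1.37), fell as well. The array medians of the list were -0.32, -0.94, -0.81 and -0.54 on B1 to B4, and 0.27, -0.30 and -0.06 on L1 to L3. On T arrays they were -0.62, 0.02 and -0.57, so that 2 T arrays lay within the B range. Without 1 array, 1 to 9 genes of the list were called lower. Of 17 tRNA synthetases 5 fell and 0 rose (29.4% called against 8.07% of all genes), at a median of -0.40. At an unadjusted p under 0.05, 8 were lower and 0 higher. Sars had 7.50, 6.78, 6.88 and 6.96 in B1 to B4, against 8.29, 8.21 and 8.22 in L1 to L3 (-1.21 ± 0.20 SE, adjusted p = 0.00971), and Lars (-0.95), Iars (-0.92), Tars (-0.89) and Aars were the others. Without 1 array, 0 to 6 synthetases were called lower. In fits of 6 arrays the call was missing for Mthfd2 (without L1 or L2, up to 0.0616), Gpt2 (without L1 or L3, up to 0.0946), Aldh18a1 (without L1, L2 or L3, up to 0.084) and Sars (without L1 or L2, up to 0.0556). The same held for Lars (without L1, L2 or L3, up to 0.127), Iars (without B1, L1, L2 or L3, up to 0.151) and Tars (without B1, L1, L2 or L3, up to 0.113). The number of the 12 unblocked settings with no array left out in which the call was lost (with the highest adjusted p) was 1 for Gpt2 (0.0539), 1 for Sars (0.0887) and 1 for Tars (0.0545). Differences of other probes that missed the threshold were those of Sars (-0.60) and Iars (-0.72).

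The response element of ATF4 with C/EBP proteins reads TGATGNAA on either strand. In RefSeq promoters (GRCm38.p6, 250 bases before to 50 after the start of each gene), these letters were in 3.97% of all 32851 promoters, or in 4.51% of 27025 genes. Promoters were found for 29 of the 33 amino acid genes tested, and 11 of the 29 held the letters (37.9%). They were in 3 of the 8 called genes with a promoter (Asns, Slc7a11 and Jdp2). Among tRNA synthetases they were in 4 of 11 genes tested and 3 of 4 called (Aars, Iars and Tars). The lists are of known ATF4 targets in part, so that this share is a description of the lists. The 6 called promoters are printed from 120 bases before to 30 bases after the start because their genes fell together, 5′ to 3′ along each gene, with the matching letters in capitals.
Asns (chr6:7693180-7693329, minus strand): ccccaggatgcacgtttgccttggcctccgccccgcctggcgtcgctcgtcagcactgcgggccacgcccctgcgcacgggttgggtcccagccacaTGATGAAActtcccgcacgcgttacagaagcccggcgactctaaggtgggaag
Slc7a11 (chr3:50443584-50443733, minus strand): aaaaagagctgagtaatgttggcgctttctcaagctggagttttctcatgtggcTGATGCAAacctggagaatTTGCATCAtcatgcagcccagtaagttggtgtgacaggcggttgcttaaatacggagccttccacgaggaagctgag
Jdp2 (chr12:85599296-85599445, plus strand): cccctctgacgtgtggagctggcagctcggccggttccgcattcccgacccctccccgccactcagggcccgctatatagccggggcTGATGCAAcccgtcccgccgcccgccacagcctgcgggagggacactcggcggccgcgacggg
Aars (chr8:111033722-111033871, plus strand): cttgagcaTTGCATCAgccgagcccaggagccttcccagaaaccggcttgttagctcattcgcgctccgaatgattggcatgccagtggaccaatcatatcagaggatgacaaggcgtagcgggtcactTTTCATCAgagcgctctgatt
Iars (chr13:49682010-49682159, plus strand): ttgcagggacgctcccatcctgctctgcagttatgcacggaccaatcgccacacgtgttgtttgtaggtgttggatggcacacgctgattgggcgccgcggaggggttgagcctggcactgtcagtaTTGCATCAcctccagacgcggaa
Tars (chr15:11399629-11399778, minus strand): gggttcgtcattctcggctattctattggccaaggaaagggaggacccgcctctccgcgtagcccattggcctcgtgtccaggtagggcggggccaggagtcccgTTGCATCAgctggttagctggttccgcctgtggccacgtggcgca

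In Asns the letters began 23 bases before the start and in Jdp2 33 bases before it, both on the strand of the gene. Slc7a11, the cystine importer, had 2 matches, at -66 on the strand of the gene and at -47 on the opposite strand. Aars had matches at -112 and at 10 bases into the gene, Iars at 8 bases into the gene and Tars at -15, all on the opposite strand.

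Called genes of ribosome biogenesis were lower in B as well. Of 50 tested 11 fell and 0 rose (22% called against 8.07% of all genes, and 1 to 12 fell without 1 array). The median was -0.51, and 46 of the 50 had a negative difference. At an unadjusted p under 0.05, 27 were lower and 2 higher. In the random variance model, 2427 of all 9423 genes passed that p. Array medians were -0.64, -0.27, -0.67 and -0.42 on B1 to B4 and -0.06 to 0.10 on L1 to L3. The T arrays stood on the other side of L, at 0.15 to 0.41. Rrp1b had 8.24, 8.21, 7.86 and 8.24 in B1 to B4, against 9.71, 9.69 and 9.47 in L1 to L3 (-1.49 ± 0.17 SE, adjusted p = 0.00232), and its other 3 probes differed by -0.87 to -1.34. Rrp12 (-1.30), the pre-60S factor Bop1 (-1.12) and the rRNA methyltransferase Nop2 (-1.0) were also lower. From the MYC network, Myc was at 7.14, 7.10, 6.72 and 7.08 in B1 to B4, against 7.94, 7.79 and 7.68 in L1 to L3 (-0.79 ± 0.17 SE, adjusted p = 0.0253) and Mycl differed by -1.42. Mycl was detected on 1 B array only, so that its difference rests in part on values at background. Mxd4, a repressor that competes with MYC for MAX, was at 10.26, 9.21, 9.33 and 9.92 in B1 to B4, against 7.79, 7.49 and 7.74 in L1 to L3 (2.01 ± 0.26 SE, adjusted p = 0.00363), and Mxd3 rose by 1.20. Of 23 purine genes, Ppat and Gart, which act early in synthesis (-0.88 and -0.84), and Impdh1 (-0.60) fell, and Xdh, which degrades purines, rose. The share of purine genes called was 17.4%. Of 38 cell cycle genes 1 rose and 0 fell (2.63% called against 8.07% of all genes). This was Ccnd1, cyclin D1 (0.84). Leaving out 1 array took the adjusted p past 0.05 for Rrp12 (without L1, L2 or L3, up to 0.117), Bop1 (without L1, L2 or L3, up to 0.0904), Nop2 (without B1, L2 or L3, up to 0.141) and Myc (without L1, L2 or L3, up to 0.113). It was also missed for Mycl (without L1, L2 or L3, up to 0.0833), Ppat (without B1, L1, L2 or L3, up to 0.114), Gart (without L1, L2 or L3, up to 0.129) and Impdh1 (without B1, B3, B4, L1, L2 or L3, up to 0.157). So it was for Ccnd1 (without L1, L2 or L3, up to 0.0929). With the replicate number as a block the adjusted p was 0.0993 for Impdh1 and 0.0556 for Ccnd1. Of 12 settings that left out no array and had no block, the number that ended the call (with the highest adjusted p) was 1 for Rrp12 (0.0566), 1 for Nop2 (0.0596), 1 for Gart (0.0914) and 2 for Impdh1 (0.0729). Other probes of the same gene missed the threshold for Nop2 (-0.77), Mxd4 (0.94), Gart (-0.54), Impdh1 (-0.47) and Ccnd1 (0.38 and 0.58).

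Lysosomal genes that were called were higher in B. Of 52 tested 12 rose and 0 fell (3.83% of all genes rose), with a median of 0.41, and 45 of the 52 had a positive difference. At an unadjusted p under 0.05, 25 were higher and 1 lower. In the random variance model, 2427 of all 9423 genes passed that p. Array medians were 0.43 to 0.55 on B arrays and -0.04 to 0.05 on L arrays. T arrays were at -0.32 to -0.12. The cysteine proteases Ctsl and Ctsh rose, with 9.55, 9.76, 8.97 and 9.61 in B1 to B4, against 8.17, 8.04 and 7.90 in L1 to L3 for Ctsl (1.43 ± 0.21 SE, adjusted p = 0.00595) and 12.08, 11.72, 12.12 and 11.87 in B1 to B4, against 10.66, 10.32 and 10.85 in L1 to L3 for Ctsh (1.34 ± 0.19 SE, adjusted p = 0.00485). The endolysosomal channel Tpcn1 had 12.03, 11.96, 12.20 and 12.02 in B1 to B4, against 10.54, 10.27 and 10.91 in L1 to L3 (1.48 ± 0.18 SE, adjusted p = 0.00322). The B values of all 3 genes were above their L values. Without 1 array, 4 to 10 lysosomal genes were called. Other probes of the same gene missed the threshold for Tpcn1 (0.57 and 0.74).

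The E-box TCACGTGA is its own reverse complement and the core of the element that the TFEB family binds at lysosomal genes. It was in 0.97% of all promoters, or 1.12% of genes, in 6 of the 42 lysosomal genes with a promoter (14.3%) and in 3 of the 9 called genes with one. These promoters (Ctsa, a carboxypeptidase, Igf2r, the mannose 6-phosphate receptor that carries enzymes to lysosomes, and Atp6v0d1, a subunit of the proton pump) are printed over the same 150 bases, to show where the E-box lies in capitals.
Ctsa (chr2:164833653-164833802, plus strand): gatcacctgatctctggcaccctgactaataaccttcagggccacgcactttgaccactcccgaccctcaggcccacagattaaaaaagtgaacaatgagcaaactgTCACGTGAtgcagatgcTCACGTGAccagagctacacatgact
Igf2r (chr17:12769677-12769826, minus strand): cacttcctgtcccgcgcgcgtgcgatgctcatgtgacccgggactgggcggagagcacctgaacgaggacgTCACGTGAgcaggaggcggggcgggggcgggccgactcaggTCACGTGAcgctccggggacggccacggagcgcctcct
Atp6v0d1 (chr8:105566035-105566184, minus strand): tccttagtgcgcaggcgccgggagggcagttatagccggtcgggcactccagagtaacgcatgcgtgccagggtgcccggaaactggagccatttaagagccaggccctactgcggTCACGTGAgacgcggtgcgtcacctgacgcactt

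Ctsa had 2 E-boxes, at -13 and 5 from the start, and Igf2r 2, at -49 and -8. In Atp6v0d1 it began at -4, so that it spans the start. A match in these letters is not a binding site.

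**Figure D3:**
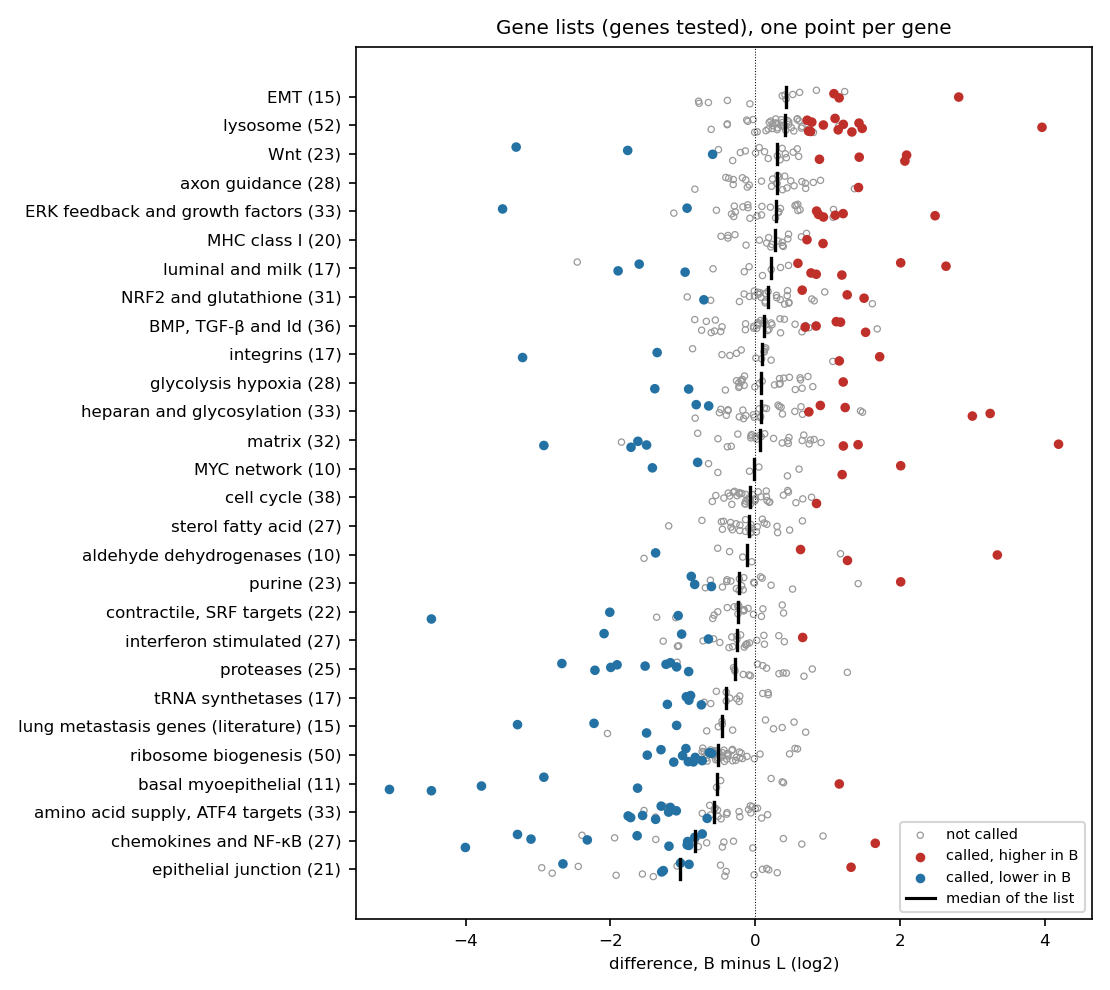
Difference between B and L sublines (log2, horizontal axis) of each gene tested, in the lists with at least 10 genes tested, ordered by their median (black bar). Filled points passed an adjusted p of 0.05, red where higher in B and blue where lower in B; none of the called genes in the amino acid, tRNA synthetase, ribosome biogenesis and protease lists was higher in B, and none of those in the lysosome list was lower.

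Inhibitors of differentiation are helix-loop-helix proteins that cannot bind DNA, hold their partners inactive and are induced by BMP ligands. Id2 was called, with 9.90, 10.10, 10.06 and 9.29 in B1 to B4, against 8.25, 8.35 and 8.34 in L1 to L3 (1.53 ± 0.21 SE, adjusted p = 0.00484), and its other probes differed by 1.51 and 1.54. Id1 was at 7.31, 7.85, 8.63 and 8.27 in B1 to B4, against 8.22, 8.64 and 8.56 in L1 to L3 (-0.46 ± 0.29 SE, adjusted p = 0.354) and Id3 at 8.35, 7.97, 7.77 and 9.34 in B1 to B4, against 8.55, 8.31 and 7.84 in L1 to L3 (0.12 ± 0.35 SE, adjusted p = 0.866). Id4 was detected on 3 B arrays and no L array, at 7.12, 7.60, 4.93 and 6.05 in B1 to B4, against 4.71, 4.73 and 4.78 in L1 to L3 (1.69 ± 0.53 SE, adjusted p = 0.0803). Within the B group Id4 was highest on B2 and lowest on B3. Id1, Id3 and Id4 missed the threshold. Of 36 genes of BMP, TGF-β and Id signalling 5 rose and 0 fell (13.9% called against 8.07% of all genes). The number that rose was 2 with the replicate block. The others were Ltbp3, which binds latent TGF-β (1.18), the ligand Tgfb3 (1.12), the procollagen C-proteinase Bmp1 (0.84) and the receptor Tgfbr1. The ligand Bmp7 was at 8.63, 9.41, 7.69 and 6.95 in B1 to B4, against 8.72, 8.46 and 8.76 in L1 to L3 (-0.48 ± 0.49 SE, adjusted p = 0.585), with the B values on either side of the L values. The call was lost when 1 array was left out for Ltbp3 (without L2 or L3, up to 0.103), Tgfb3 (without B1, B4, L1, L2 or L3, up to 0.174) and Bmp1 (without B1, L1, L2 or L3, up to 0.109). The blocked fit gave an adjusted p of 0.0518 for Tgfb3 and 0.0555 for Bmp1. Among the 12 unblocked settings that left out no array, those that ended the call (with the highest adjusted p) numbered 4 for Tgfb3 (0.103). Further probes that were not called (with their differences) were those of Ltbp3 (0.93) and Bmp1 (0.71 and 0.46).

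Wnt ligands that were called fell, and secreted Wnt inhibitors that were called rose. Of 23 genes tested 4 rose and 3 fell (30.4% called against 8.07% of all genes), at a median of 0.31 (0.01 at the bounds). The ligands Wnt7a and Wnt10a fell, with 6.6, 6.80, 4.55 and 8.03 in B1 to B4, against 9.63, 10.14 and 9.62 in L1 to L3 for Wnt7a (-3.30 ± 0.64 SE, adjusted p = 0.0183) and 6.81, 6.36, 6.2 and 5.66 in B1 to B4, against 7.37, 8.41 and 8.28 in L1 to L3 for Wnt10a (-1.76 ± 0.32 SE, adjusted p = 0.0138). The secreted inhibitors Notum and Sfrp1 (1.44), the membrane inhibitor Apcdd1 and Wls (0.89), which carries Wnt ligands to the cell surface, rose. The receptor Fzd3 also fell (-0.59, limma adjusted p = 0.0492). Its call was lost without any 1 of the 7 arrays (up to 0.198) and in 5 of the 12 unblocked settings (up to 0.147). Its other probes were at 0.21 and -0.58, and neither was called. Apcdd1 had 8.91, 8.06, 8.68 and 8.83 in B1 to B4, against 6.33, 6.24 and 7.08 in L1 to L3 (2.07 ± 0.27 SE, adjusted p = 0.00363). Of 33 genes of receptor kinase and ERK signalling 6 rose and 2 fell (24.2% called). Early response factors Egr1 (2.48) and Jun (1.11) and the ERK phosphatases Dusp6 (1.21) and Dusp4 (0.94) rose, and Fgfbp1 and the nuclear ERK phosphatase Dusp5 (-0.94) fell. Dusp6 had 7.52, 7.69, 7.46 and 7.31 in B1 to B4, against 6.06, 6.24 and 6.55 in L1 to L3 (1.21 ± 0.18 SE, adjusted p = 0.00595). Of 28 axon guidance genes 1 rose, Sema5a (1.42), and 0 fell (3.57% called against 8.07% of all genes). Calls that did not hold in every subset of 6 arrays were those for Wnt7a (without L1, L2 or L3, up to 0.0999), Wnt10a (without L2 or L3, up to 0.0833), Sfrp1 (without L1 or L2, up to 0.0666) and Wls (without B1, L1, L2 or L3, up to 0.113). Further such genes were Egr1 (without L1, L2 or L3, up to 0.065), Jun (without L1 or L2, up to 0.0794), Dusp4 (without B1, B2, L1, L2 or L3, up to 0.508) and Dusp5 (without B1, B3, L1, L2 or L3, up to 0.155). The same held for Sema5a (without B1, L1, L2 or L3, up to 0.152). The probe of each gene was chosen again in each subset. The lowest Dusp4 difference among them was 0.34, near the level of its other probes. The number of the 12 unblocked settings with no array left out in which the call was lost (with the highest adjusted p) was 2 for Wnt7a (0.069), 2 for Dusp4 (0.0689), 1 for Dusp5 (0.0655) and 2 for Sema5a (0.0943). Differences of other probes that missed the threshold were those of Dusp4 (0.39, 0.48 and 0.36) and Sema5a (0.25).

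Aldehyde dehydrogenases were called in either direction, with 3 of 10 higher and 1, Aldh18a1, lower (40% called against 8.07% of all genes). Aldh3a2, which oxidises fatty aldehydes, had 11.01, 11.19, 11.45 and 11.18 in B1 to B4, against 10.11, 9.84 and 9.85 in L1 to L3 (1.27 ± 0.17 SE, adjusted p = 0.00385), and the mitochondrial Aldh2 rose by 0.63. Bdh2, a dehydrogenase of hydroxybutyrate, was at 9.63, 10.13, 10.67 and 9.16 in B1 to B4, against 8.14, 7.91 and 7.94 in L1 to L3 (1.90 ± 0.32 SE, adjusted p = 0.0108). Of 31 NRF2 and glutathione genes 3 rose and 1 fell (12.9% called against 8.07% of all genes). The glutathione transferases Gsta4 (1.5) and Gstm2 (1.27) and Nfe2l2, which encodes NRF2 (0.65), rose. Tkt fell on a probe that was detected on 1 L array, while its other probes were at 0.12 and -0.32, so that its direction is uncertain. Without 1 of the 7 arrays the threshold was missed for Aldh2 (without B1, B2, B4, L1, L2 or L3, up to 0.182), Bdh2 (without L2, up to 0.0635), Gsta4 (without B1, L1, L2 or L3, up to 0.118) and Gstm2 (without L1 or L3, up to 0.103). The same held for Nfe2l2 (without B1, B2, L1, L2 or L3, up to 0.147) and Tkt (without B1, B2, B3, L1, L2 or L3, up to 0.466). Probes were chosen again in these fits, and the Tkt difference ran from -0.82 to -0.36. With the replicate number as a block the adjusted p was 0.0769 for Aldh2, 0.0584 for Nfe2l2 and 0.0521 for Tkt. Of 12 settings that left out no array and had no block, the number that ended the call (with the highest adjusted p) was 1 for Aldh2 (0.169), 1 for Gsta4 (0.0697), 1 for Nfe2l2 (0.0967) and 7 for Tkt (0.666).

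Of 33 genes of heparan sulphate and glycosylation 5 rose and 2 fell (21.2% called against 8.07% of all genes). Besides Hs3st1 those that rose included Galnt15, which starts O-linked glycans, the sialyltransferase St6gal1 (0.90) and Uap1l1, a relative of the enzyme that makes UDP-N-acetylglucosamine. The Galnt15 probe that was called was detected on no L array and was at least 4.65-fold higher in B (limma adjusted p = 0.00607). Its other probe, detected in both groups, differed by 2.49 (p adjusted over all probes, 0.0116). Uap1l1 had 12.42, 12.14, 12.35 and 12.40 in B1 to B4, against 11.21, 10.93 and 11.11 in L1 to L3 (1.24 ± 0.16 SE, adjusted p = 0.00337). The heparan sulphate enzymes Hs6st1 (-0.81) and Glce (-0.64) fell, and with the replicate block neither kept its call. Of 28 glycolysis and hypoxia genes 1 rose, Eno2 (1.22), and 2 fell, Car12 (-1.39) and Tpi1 (-0.92), which was at -0.23 and not called with the probe of highest mean (adjusted p = 0.359). The share called in this list was 10.7%, near the 8.07% of all genes. Of 27 sterol and fatty acid genes 0 were called in limma (3 at an unadjusted p under 0.05), with Mvk the nearest to a call (adjusted p = 0.0914, or 0.0233 with the block). An unadjusted p under 0.05 was reached by 2427 of all 9423 genes in the random variance model. Gapdh was at 13.76, 13.56, 13.63 and 13.58 in B1 to B4, against 13.86, 13.88 and 13.84 in L1 to L3 (-0.23 ± 0.15 SE, adjusted p = 0.361). The 0.05 limit was crossed when an array was dropped for St6gal1 (without B1, L1, L2 or L3, up to 0.111), Hs6st1 (without B1, B2, B4, L1, L2 or L3, up to 0.15), Glce (without B1, L1, L2 or L3, up to 0.13) and Galnt15 (without L2, up to 0.0719). It was also missed for Eno2 (without L1, L2 or L3, up to 0.0792), Car12 (without B1, L1, L2 or L3, up to 0.0878) and Tpi1 (without B1, B3, L1, L2 or L3, up to 0.165). The blocked fit gave an adjusted p of 0.0882 for Hs6st1 and 0.0769 for Glce. Among the 12 unblocked settings that left out no array, those that ended the call (with the highest adjusted p) numbered 1 for St6gal1 (0.0687), 1 for Hs6st1 (0.0546), 1 for Glce (0.0558), 1 for Car12 (0.0587) and 2 for Tpi1 (0.359). Further probes that were not called (with their differences) were those of Tpi1 (-0.25 and -0.23).

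Genes named in earlier work on breast cancer spread to the brain and the lung were looked up as lists, from general knowledge of the field. These lists too were chosen with earlier results of these data known. Of 9 brain metastasis genes 3 were tested and 0 called in limma, with 0 at an unadjusted p under 0.05. These were Ptgs2 (-0.67 ± 0.39 SE, adjusted p = 0.32), Hbegf (-0.10 ± 0.26 SE, adjusted p = 0.853) and the gap junction gene Gja1 (0.05 ± 0.15 SE, adjusted p = 0.867). Gja1 had 13.34, 13.44, 13.35 and 13.37 in B1 to B4, against 13.45, 13.37 and 13.15 in L1 to L3. The median of 15 lung metastasis genes tested was -0.46. Of these genes, 4 were lower in B and 0 higher (26.7% called against 8.07% of all genes). They were Cxcl1, the surface protein Ly6e (-2.23), Tnc and the gelatinase Mmp2 (at least 1.32-fold lower). Tnc had 4.79, 4.54, 4.57 and 5.14 in B1 to B4, against 6.41, 6.11 and 6.25 in L1 to L3 (adjusted p = 0.00337) and none of its probes was detected in B. Ly6e stood at 6.14, 6.49, 4.91 and 5.68 in B1 to B4, against 7.93, 7.97 and 8.19 in L1 to L3 (-2.23 ± 0.33 SE, adjusted p = 0.00599). With 6 arrays the adjusted p exceeded 0.05 for Ly6e (without L1, up to 0.0515) and Mmp2 (without B1, L1, L2 or L3, up to 0.125). The number of the 12 unblocked settings with no array left out in which the call was lost (with the highest adjusted p) was 2 for Mmp2 (0.0812).

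The T sublines, whose arrays entered the normalization and the choice of probes but stayed out of the fit, were set beside the called genes. For 679 of the 760 called genes (89.3%) the T mean lay closer to the L mean than to the B mean. It lay closer to the B mean for 23 of the genes higher in B and 58 of those lower in B. With the L mean at 0 and the B mean at 1, the median place of T was -0.02 for genes higher in B and 0.11 for genes lower in B. T was more than 0.25 beyond L for 135 genes, within 0.25 of L for 416 and between 0.25 and 0.75 for 185. It was within 0.25 of B for 21 genes and farther beyond B for 3. The same L values enter both sides of this comparison, and it has no test.

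Several genes stood out by the place of the T sublines. Fgfbp1 and Wnt7a, lower in B, were near the L level in T. Fgfbp1 had 10.41, 9.95 and 10.05 in T1 to T3, with means of 6.62 in B and 10.11 in L, and Wnt7a 10.24, 10.25 and 10.38, with means of 6.5 in B and 9.80 in L. Others were at the B level in T and apart in L alone. Mmp13 had 5.02, 6.45 and 7.39 in T1 to T3, with means of 6.04 in B and 8.25 in L. The purinergic receptor P2ry6 had 4.59, 5.66 and 5.40 in T1 to T3, with means of 6.25 in B and 8.52 in L. Rsad2 had a T mean of 5.84, below the B mean of 6.26 and the L mean of 8.35. By their means, the L sublines were the ones apart in these 3 genes. Among genes higher in B, Jun had a T mean of 8.23, between means of 8.61 in B and 7.51 in L. Xdh was at 5.75 in T, beyond the L mean of 7.20 and farther from the B mean of 9.21. T1 stood apart from T2 and T3 in Acta2, with 5.03 in T1, 9.71 in T2 and 9.09 in T3. It was also the lowest T array, at 4.48 to 4.99, in Pdpn, Bgn, Lyz1, Lyz2, Ccl2 and Mmp12, in which T2 and T3 lay between 5.67 and 8.02. These genes thus moved with Acta2 among the T arrays, and their part in it was not tested. Of the macrophage markers 15 of 18, and of the fibroblast and pericyte markers 9 of 14, were detected on none of the 7 B and L arrays. Dropping an array moved the adjusted p above 0.05 for P2ry6 (without B1, B4, L1, L2 or L3, up to 0.145), Rsad2 (without B1, B2, B4, L1, L2 or L3, up to 0.169), Mmp13 (without L1 or L2, up to 0.0602) and Jun (without L1 or L2, up to 0.0794). With the replicate number as a block the adjusted p was 0.0621 for P2ry6 and 0.0584 for Rsad2. Of 12 settings that left out no array and had no block, the number that ended the call (with the highest adjusted p) was 2 for P2ry6 (0.103) and 4 for Rsad2 (0.14). Other probes of the same gene missed the threshold for Mmp13 (-0.65).

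**Figure D4:**
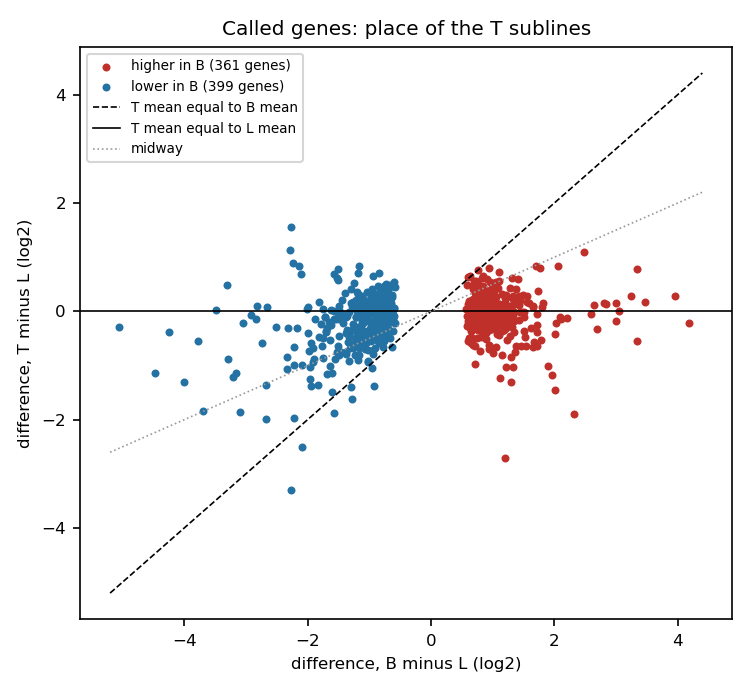
Difference of the T mean from the L mean (log2, vertical axis) against the difference of the B mean from the L mean (log2, horizontal axis) for the 760 called genes. Points near the solid line have T and L at the same level, points near the dashed line T and B; 679 genes lay nearer the solid line.

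Differences were not spread evenly over the genome. For each array and each of 20 chromosomes, the median difference from the mean of the L arrays was taken over the genes tested. Of the 80 medians of B arrays 11 were 0.2 or more in size, against 0 of the 60 of L arrays and 0 of the 60 of T arrays. The largest was 0.46 in size on B arrays, 0.11 on L arrays and 0.10 on T arrays. On chromosome 19, with 349 genes tested, the medians were -0.37, -0.25, -0.45 and -0.01 on B1 to B4, against 0.11, 0.02 and -0.11 on L1 to L3 and -0.03 to 0.06 on T arrays. Taken over all genes of the chromosome, the median was thus low on B1, B2 and B3 and level with L on B4. Of its genes 32 were called lower in B and 6 higher, and 258 of the 349 (73.9%) had a negative difference, against 49.2% of the genes of other chromosomes. In all 13 consecutive windows of 25 genes along it the median of the B minus L differences was negative, from -0.42 to -0.05. These windows are of the group means and do not show each subline. Other shifts belonged to single sublines. The median on chromosome 15 was -0.46 on B2 and -0.12 to 0.03 on the other B arrays. On chromosome 5 B3 stood at -0.31 and the other B arrays at -0.03 to 0.04. On chromosome 14 B2 was at -0.28, on chromosome 3 B2 was at 0.27 and on chromosome 13 B4 was at 0.22. These values have no test, and their cause was not tested.

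**Figure D5:**
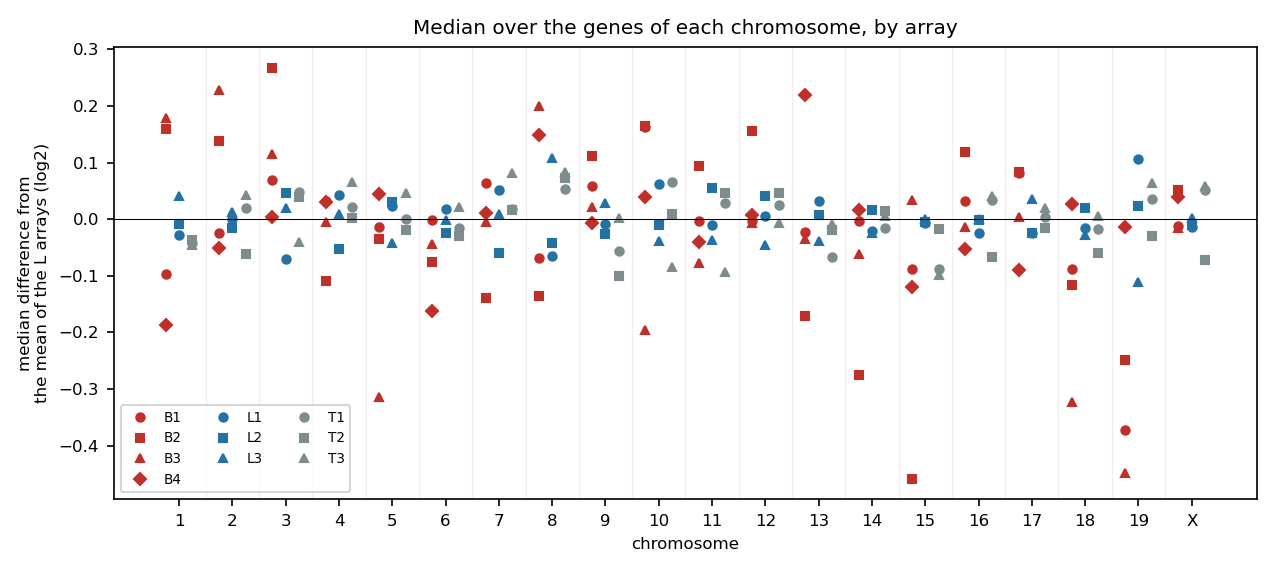
Median difference from the mean of the L arrays (log2, vertical axis) over the genes tested on each chromosome (horizontal axis), with 1 point per array, B arrays in red, L arrays in blue and T arrays in grey. On chromosome 19 B1, B2 and B3 lay at -0.37, -0.25 and -0.45, and B4 at -0.01 lay with the L and T arrays.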

How the data were processed

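RNA of 10 cultured sublines (4 B, 3 L, 3 T) was measured on Illumina MouseWG-6 v2.0 arrays. The table deposited by the authors gives, for each of 45281 probes and each array, a non-normalized signal intensity and a detection p-value. A second table deposited by the authors holds the log2 values they made with lumi (version not given in the sources used here) and was used as an alternative. All columns of samples were used (0 left out).

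The intensities of all 10 arrays were background-corrected by normexp with the detection p-values, quantile normalized with an offset of 16 and put on the log2 scale (neqc, limma 3.58.1, R 4.3.3). Probes whose detection p was at most 0.01 on any of the 7 B and L arrays were kept. Of 45281 probes 34885 had 1 gene symbol, 18 several and 10378 none. For each gene the detected probe with the largest interquartile range over all 10 arrays, T arrays included, was tested (3675 genes had more than 1). B and L were compared with lmFit and eBayes, adjusted by Benjamini-Hochberg over 9423 genes, with calls at 0.05. The fit was tested on simulated data. Arrays give no read depth, and their number limits the precision.

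A probe not detected on any array of a group has a bound there: its fold is at least the mean of the detected group over the mean of, for each array, the higher of the probe and the lowest detected signal. Levels were not compared between probes. Chromosomes came from the RefSeq annotation of GRCm38.p6. The members and the gene lists were chosen with earlier results of these data known. Genes named were the 14 with the largest difference in each direction among calls with no overlap, up to 4 called genes in each direction of each list by size (the 2 of lowest p where fewer than 2 were called), genes the study discusses, up to 6 called genes in each direction detected in 1 group only, up to 5 in each direction with T closer to B, and called markers of other cells. Genes named outside this rule (Tgfbr1, genes with a printed promoter, the epithelial genes low on B3 and some list members) were chosen after their values were seen. Replicate numbers are shared by B1 to B3 and L1 to L3. The correlation of the deviations of same-numbered arrays was 0.177, 0.143 and 0.216, against -0.114 to 0.0563 for other pairs, and a blocked fit was run beside the unblocked one. As B4 has no partner, it adds nothing to that fit. Alternatives were the authors' processed values, other background corrections, scalings, filters and probe choices, other variance models, the block, the random variance model of the methods, and leaving out each array. Where an alternative left out an array or changed the values or the filter, the probe of each gene was chosen again. A call lost there can reflect another probe of the gene.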

Additional observations from a re-analysis of the deposited data

Results flagged for a closer look

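Among the 4 B arrays, 1 value lay far from the others for 8 of the 150 named genes, by Dixon's test of its gap against the whole range. Chance alone sets apart about 1 in 20 groups of 4. B2 was apart in 4 genes. Il1a was at 8.27 on B2 and 4.62 to 5.06 on the other B arrays, Tars at 8.87 on B2 and 9.36 to 9.47 on the others, and Soga1 at 5.48 on B2 and 6.14 to 6.27 on the others. Lyz1, at 5.24 on B2 and 4.45 to 4.57 on the others, was not detected on any B array, so that this gap lies among values at background. B3 was apart in 3 genes. Pdgfra was at 11.45 on B3 and 9.18 to 9.43 on the others, Myc at 6.72 on B3 and 7.08 to 7.14 on the others, and Rrp1b at 7.86 on B3 and 8.21 to 8.24 on the others. Flt1 was at 10.44 on B1 and 9.65 to 9.78 on the others.

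Of 20 chromosome medians 1 had a value apart. The median on chromosome 12 was 0.16 on B2 and -0.01 to 0.01 on the other B arrays.

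Among 2525 detected probes without 1 gene symbol, which no comparison above uses, 142 differed between B and L (5.62%, limma, adjusted over all detected probes), with 62 higher and 80 lower in B. Of the detected probes with 1 symbol 6.54% differed.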

How the results depend on the processing

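The 760 calls numbered 522 to 1146 under the alternatives that left out no array. Calls rose to 1146 (562 higher in B) with all 10 arrays in 1 model, those higher in B were 560 with array weights and 203 with median scaling. The fit with the replicate number as a block gave 664 calls, 315 higher and 349 lower in B, of which 490 were among the 760, and the calls it changed are given beside the genes, except Ankrd12, Flt1, Ifi27, Fzd3 and Samhd1 (adjusted p of 0.0617, 0.0534, 0.0720, 0.0771 and 0.0570). The methods' random variance model gave 767. Leaving out 1 array gave 124 to 852 calls, 49 to 409 higher and 75 to 443 lower in B, and 152 to 392 genes at an unadjusted p under 0.001, lowest without L2. With 1 array left out, the distance between groups exceeded that within them by 11.4 to 25.5. The exact permutation test on 6 arrays allows no p under 0.0667, and without L2 its p was above that floor, at 0.133. Among 130 named genes called, settings that left out no array ended most calls with no detection filter (34, where more genes are tested), median scaling (17), an intensity trend with robust prior (17), the authors' processed values (14) and the probe of highest mean (12). Of the 130, 73 passed under every alternative that left out no array and 41 under all. Soga1 was at -0.18 with the probe of highest mean, and Tkt at 0.12 with that probe and with the authors' processed values. Among genes not called, Id3 was at -0.21 with the block and -0.21 to 0.32 with 1 array left out (below 0 without B4 or L3), Gja1 at -0.057 with median scaling and -0.036 to 0.12 with 1 array left out (below 0 without L3), and Hbegf at -0.30 to 0.091 with 1 array left out (above 0 without B3 or L2). The chromosome 19 median was -0.15 to -0.35 under all alternatives but no detection filter (-0.05). The causes were not tested. Signals near the background leave only bounds on a fold.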
